A study of Fragaria vesca with 9 samples.

Results

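Fruits of 2 mutant lines of FvMATE51 in woodland strawberry, Fragaria vesca, were compared with each other. Mutant line 2 (Fvmate51-2, 3 libraries) was set against mutant line 1 (Fvmate51-1, 3 libraries), and 3 wild type libraries are given for reference only. Every library held polyadenylated RNA from fruits at 26 days postanthesis. The series describes the product of FvMATE51 as a vacuolar membrane protein. Both lines carry a mutation of this gene, and the labels give neither the alleles nor how they differ. Allele, other genetic differences between the lines and growth conditions cannot be told apart here. Whether the 3 libraries of a line came from different plants is not stated. The p-values cover only the variation among these libraries, and that variation may be technical. The genes compared were the 15476 of 34777 listed genes with at least 1 FPKM in 3 or more of the 6 mutant libraries, FPKM being a count scaled to gene length and library size. Of these, 11221 had a protein match that names them, and 2351 fell into at least 1 of 60 lists made from words in those names. Because 0 descriptions name MATE51, the level of the mutated gene is not analysed here.

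MATE proteins are membrane transporters that move organic molecules such as flavonoids, alkaloids, hormones and citrate out of the cytosol, several of them into the vacuole. In a ripening strawberry the receptacle softens as wall enzymes act on pectin and hemicellulose, anthocyanins and volatiles accumulate, and the surface is sealed by cutin and wax. The same fruit carries achenes, the true fruits with their seeds, and expresses pathogenesis-related proteins such as chitinases, glucanases, thaumatin-like proteins and the Fra a allergens.

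Line 2 libraries held 38130965, 39700768 and 39907761 counts in listed genes, line 1 libraries 39172547, 31587667 and 40538911, and wild type libraries 39187325 to 51649115. The share of counts that fell outside the listed genes was 0.1 to 1.5% in line 2, 4.49 to 10.14% in line 1 and 1.78 to 3.71% in wild type. The part of this gap in the results was not tested. Between 15054 and 15328 genes reached 1 FPKM per library. Across the 6 mutant libraries, the first principal component held 78.4% of the variance and separated the lines. The second held 9.6% and set line 1 replicate 2 apart, at 20.7, from the other libraries at -12.2 to 4.9. Pearson r across genes was 0.9878 to 0.9949 between replicates of a line and 0.9529 to 0.9589 between libraries of different lines. No library was a copy of another: the chi-square per gene averaged 4.54 to 39.44 between replicates of a line. A counted unit may be 1 read of a pair, so the value that sampling noise alone would give is uncertain.

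Between the lines, 4860 of the 15476 genes differed (31.4%, limma, Benjamini-Hochberg adjusted p under 0.05), of which 2684 (17.3%) were higher and 2176 (14.1%) lower in line 2. Most of these differences were small on the log2(FPKM + 1) scale: 2942 of the 4860 were under 1.5-fold, and the median size of the 4860 was 0.491. On that scale a difference of at least 2-fold was called for 742 genes (4.79%), 423 higher (2.73%) and 319 lower (2.06%). One of at least 4-fold was called for 102 higher and 38 lower genes. All line 2 values were above all line 1 values for 3929 genes (25.4%) and below them for 3272 (21.1%). The higher share of the calls, 55.2%, moved to the other side with scaling: it was 38.9% with libraries brought to 1 common FPKM sum and 40.4% with voom on recovered counts scaled to totals. After quantile normalization 2371 genes were higher and 2367 lower. The 2 scalings to totals moved the median of all tested genes from 0.01 to -0.068 and -0.07, and list medians are read against 0.01. List counts are read against the 17.3% higher and 14.1% lower of all tested genes. In fruit tissue taken whole, fewer cells of a type and less RNA per cell cannot be told apart.

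**Figure D1:**
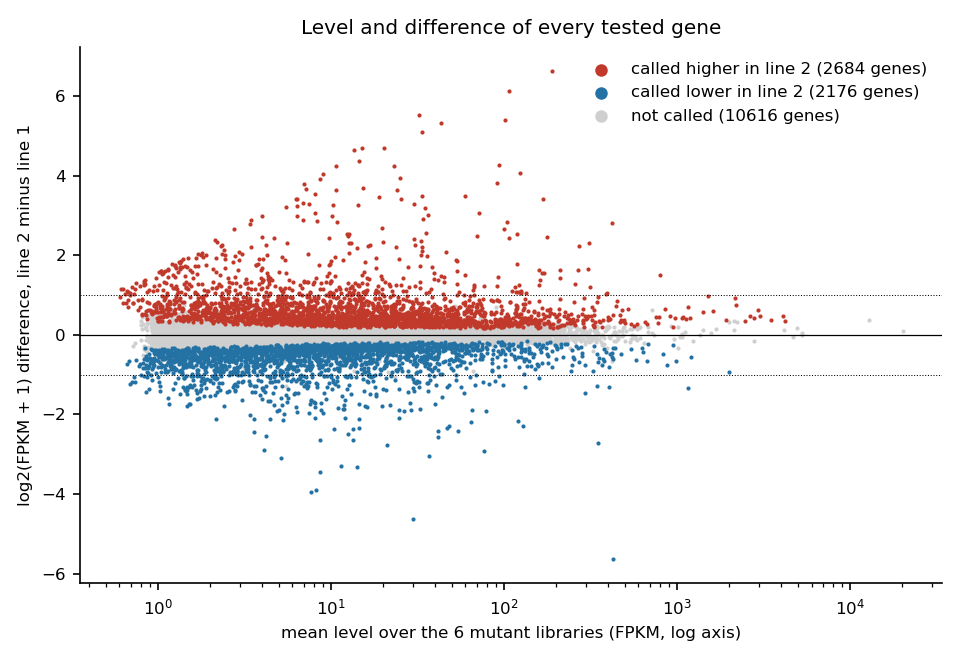
Mean level over the 6 mutant libraries (x axis, FPKM, log axis) against the log2(FPKM + 1) difference of line 2 minus line 1 (y axis) for the 15476 tested genes, with called genes in red (2684 higher in line 2) and blue (2176 lower) and the others in grey. Dotted lines mark a 2-fold difference, and the points beyond 4-fold are mostly above 0 (102 higher, 38 lower).

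Wild type was used to place these differences. Of the 423 genes at least 2-fold higher in line 2, the wild type mean lay between those of the lines for 314 (74.2%), above both for 52 (12.3%) and below both for 57 (13.5%). Of the 319 genes at least 2-fold lower in line 2, it lay between the lines for 193 (60.5%), above both for 86 (27.0%) and below both for 40 (12.5%). Over all tested genes the wild type mean lay above both lines for 5144, between them for 4705 (30.4%) and below both for 5627. Line means that lie far apart leave more room for another value between them, so these shares describe the genes and are not tested. The limit on low values admitted ROOT PRIMORDIUM DEFECTIVE 1 FvH4_3g19980, whose third-highest mutant value was 1.000 FPKM, and left out FvH4_3g05710, at 0.999 FPKM.

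Secreted defence proteins led the rises in line 2. Thaumatin-like protein 1a FvH4_6g16950 (chromosome 6, 10815317 to 10816866), of a family of antifungal proteins, stood at 370.1, 386 and 376 FPKM in line 2, 3.63, 2.49 and 2.503 FPKM in line 1 and 108, 116 and 122 FPKM in wild type. It was 131-fold higher in line 2 than in line 1 (log2 difference 6.62, SE 0.11, limma adjusted p = 2.89e-08), the largest rise among the described genes on the log2(FPKM + 1) scale, and no library of one line came near those of the other. Endochitinase EP3 FvH4_4g10610 (chromosome 4, 14349198 to 14350693), which cuts chitin, the polymer of fungal walls, stood at 213, 202 and 217 FPKM in line 2, 2.98, 1.702 and 1.51 FPKM in line 1 and 93.9, 101 and 107 FPKM in wild type. This was 102-fold higher in line 2 (log2 difference 6.14, SE 0.157, limma adjusted p = 1.02e-07), with wild type between the lines for both genes. The basic secretory protease FvH4_2g05020 stood at 63.7, 64.7 and 63.7 FPKM in line 2, 0.328, 0.598 and 0.317 FPKM in line 1 and 18.97, 19.6 and 25.5 FPKM in wild type. Its log2 difference was 5.53 (SE 0.092), and every line 1 value lay under 1 FPKM.

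Further pathogenesis-related genes followed the same order of line 2, wild type and line 1. PR-4A FvH4_3g05950 and PR-4B FvH4_3g26010, small proteins of the Barwin type that act on fungi in other plants, were nearly absent from line 1. PR-4A had 27.1 ± 2.46 FPKM in line 2, 0.1202 ± 0.0478 in line 1 and 10.99 ± 1.83 in wild type (SD, n = 3 libraries each). PR-4B had 28.8 ± 1.53 FPKM in line 2, 0.444 ± 0.234 in line 1 and 16.1 ± 1.29 in wild type. Their log2 differences were 4.64 and 4.38, and in line 1 both were near 0 in all 3 libraries. A second thaumatin-like gene, FvH4_5g01820, had 45.1 ± 0.672 FPKM in line 2, 1.49 ± 0.555 in line 1 and 39.03 ± 6.27 in wild type. Line 1 stood far below both other groups. The beta-1,3-glucanase FvH4_3g28370, which breaks the glucan of fungal walls and of plant callose, had 66.7 ± 4.68 FPKM in line 2, 1.04 ± 0.607 in line 1 and 53.4 ± 5.68 in wild type, 63.9-fold higher in line 2. A second EP3 endochitinase, FvH4_2g31570, had 15.8 ± 0.879 FPKM in line 2, 0.437 ± 0.0233 in line 1 and 7.07 ± 1.05 in wild type. The cysteine-rich receptor-like kinase FvH4_3g02833 had 12.5 ± 0.5498 FPKM in line 2, 0.295 ± 0.269 in line 1 and 6.34 ± 0.251 in wild type. Like PR-4A and PR-4B, it was among the 20 described genes that averaged at least 5 FPKM in 1 line and under 0.5 FPKM in the other. Of these 20, 17 were on in line 2 and 3 in line 1. All 17 had a wild type mean of at least 1 FPKM. Of the 3 on in line 1, ORG2 FvH4_2g11650 (wild type mean 8.71 FPKM) and DREB1D FvH4_7g28950 (19.5 FPKM) also did. Tricyclene synthase FvH4_6g43791 did not, at 0.0916 FPKM. At the limit of 1 FPKM, the tested genes with and without a description were nearer to balance. Of these, 243 reached it in all line 2 libraries and no line 1 library, and 227 the reverse.

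**Figure D2:**
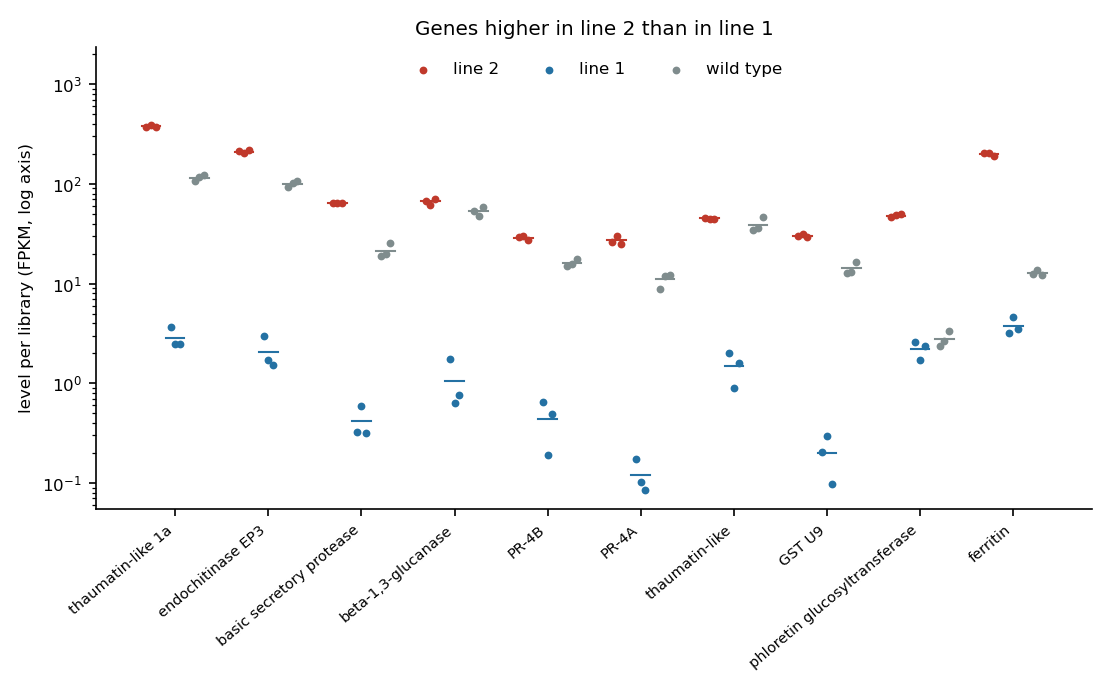
Level per library (y axis, FPKM, log axis) of 10 genes that were higher in line 2 (red) than in line 1 (blue), with wild type in grey; points are libraries and short lines are group means (n = 3). The line 2 and line 1 values do not overlap for any of the 10, and wild type lies between the lines except where it meets line 2 or stands near line 1, as for the phloretin glucosyltransferase.

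The Fra a allergens were the list with the highest share of rises. They belong to the Bet v 1 fold of pathogenesis-related proteins, which bind flavonoids and other small molecules, and Fra a proteins are needed for normal flavonoid formation in strawberry fruit. Of 20 tested members of the Fra a and Bet v 1 family, 15 (75.0%) were higher, 2 lower and 3 not called, with a median log2 difference of 2.49, against 17.3%, 14.1% and 0.01 over all genes. All 15 higher members of this list were named major strawberry allergen and lay on chromosome 4 between 22641365 and 23264081. In each of them all 3 line 2 values were above all 3 line 1 values. The list was made from words in names, so relatives under other names, on any chromosome, are not counted in it. The most abundant, FvH4_4g19050 (chromosome 4, 22768259 to 22769333), stood at 799, 776 and 653 FPKM in line 2, 111, 110.4 and 93.9 FPKM in line 1 and 304, 342 and 404 FPKM in wild type. It was 7.06-fold higher in line 2 (log2 difference 2.81, SE 0.099, limma adjusted p = 4.41e-07), and wild type lay between the lines. The largest rise, FvH4_4g19040 (chromosome 4, 22765564 to 22766987), stood at 90.8, 83.3 and 81.2 FPKM in line 2, 1.23, 1.34 and 0.927 FPKM in line 1 and 39.1, 37.6 and 48.3 FPKM in wild type. This was 73.03-fold higher in line 2, again with wild type between the lines. In FvH4_4g18850 the values were 21.9, 20.9 and 21.2 FPKM in line 2, 0.0813, 0.285 and 0.157 FPKM in line 1 and 19.2, 19.8 and 30.8 FPKM in wild type, so that line 2 overlapped wild type and only line 1 stood apart, near 0.

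Other members of the cluster fell between these extremes. FvH4_4g19061 had 203 ± 6.397 FPKM in line 2, 34.2 ± 3.13 in line 1 and 133 ± 25.8 in wild type. FvH4_4g19700 had 180.5 ± 8.23 FPKM in line 2, 33.5 ± 9.57 in line 1 and 149 ± 18.02 in wild type. FvH4_4g18990 had 129 ± 10.1 FPKM in line 2, 14.6 ± 0.149 in line 1 and 50.5 ± 6.78 in wild type. The wild type mean was between the lines for 9 of the 15 and above both for 6. The smallest difference, 1.36-fold in FvH4_4g19010 (limma adjusted p = 0.0185), was lost without line 2 replicate 2, line 2 replicate 3 or line 1 replicate 3. The 2 lower members of the list, MLP-like protein 28 FvH4_4g32750 and MLP-like protein 423 FvH4_4g34890, lay elsewhere on the chromosome. MLP-like protein 28 had 1.69 ± 0.504 FPKM in line 2 and 5.47 ± 0.366 in line 1. MLP-like protein 423 had 3.53 ± 0.848 FPKM in line 2 and 7.68 ± 0.206 in line 1. Genes of this cluster are close copies, and reads that fit several of them may have been counted for the wrong one, so the split between neighbours is uncertain.

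**Figure D3:**
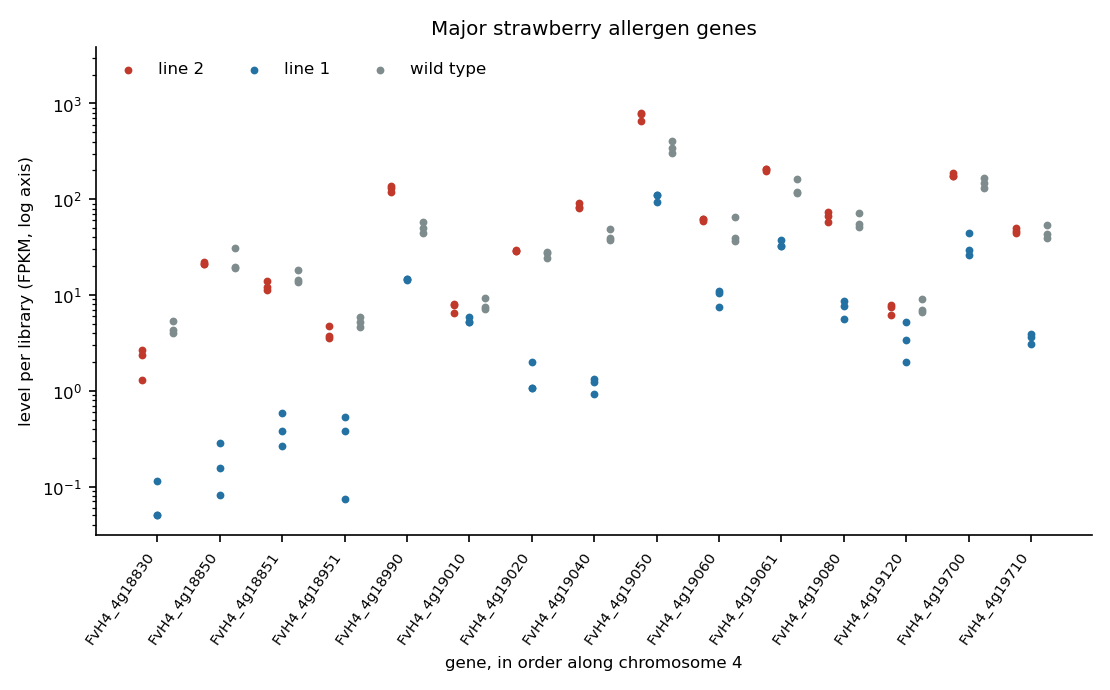
Level per library (y axis, FPKM, log axis, values of 0 drawn at 0.05) of the 15 major strawberry allergen genes in their order along chromosome 4, with line 2 in red, line 1 in blue and wild type in grey. Line 2 lies above line 1 at every gene, while line 2 and wild type overlap at several.

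Other defence lists did not move as one. Of 14 tested chitinases, 8 were higher and 0 lower in line 2 (limma, median 0.36; 0 lower at an unadjusted p under 0.05, 1 lower by voom scaled to totals, 2 lower without line 1 replicate 2 and 3 lower with array weights). Beyond the EP3 genes these included the class V chitinase FvH4_2g40880, at 2.704 ± 0.0365 FPKM in line 2, 0.0314 ± 0.0278 in line 1 and 0.573 ± 0.0534 in wild type. An endochitinase, FvH4_1g10661, had 23.7 ± 1.05 FPKM in line 2, 4.55 ± 1.42 in line 1 and 33.99 ± 4.15 in wild type. Beta-1,3-glucanases ran the other way apart from the gene named above: 3 of 27 were higher and 14 lower, median -0.35. The lower ones included FvH4_3g36150 at 14.3 ± 1.26 FPKM in line 2, 32.9 ± 7.89 in line 1 and 34.4 ± 2.704 in wild type. The basic isoform FvH4_6g24680 was lower at 1.53 ± 0.2003 FPKM in line 2, 6.28 ± 0.6301 in line 1 and 0.886 ± 0.128 in wild type. The abundant FvH4_6g05880 was higher at 182 ± 7.01 FPKM in line 2, 86.8 ± 4.06 in line 1 and 194 ± 18.01 in wild type. Glucanases also act on callose at plasmodesmata and in cell division, so the list is not of defence alone. Of 8 thaumatin-like proteins, the 2 described above rose and FvH4_2g38320 fell, at 23.4 ± 0.736 FPKM in line 2 and 37.02 ± 6.62 in line 1.

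Intracellular immune receptors were lower more often than higher. In the disease resistance list, 35 of 144 members (24.3%) were lower in line 2 and 4 (2.8%) higher, with a median of -0.14. The differences were under 2-fold on the log2(FPKM + 1) scale, which understates the change of low genes. The largest fall was in RGA3-like FvH4_7g25680, at 2.66 ± 0.195 FPKM in line 2 and 5.66 ± 0.422 in line 1, a 2.13-fold ratio of means. The largest rise was in RGA2-like FvH4_7g21941, at 6.99 ± 1.29 FPKM in line 2 and 3.48 ± 0.8198 in line 1, a 2.01-fold ratio of means. Receptor-like kinases, which sense ligands at the cell surface, had 36 of 228 higher (15.8%) and 54 lower (23.7%), against 17.3% and 14.1% over all genes. The lower count was 34 without line 2 replicate 1 and 35 without line 2 replicate 2. Members of both lists have close copies in the genome, whose reads the authors' counting could have split between them.

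Enzymes and transporters that handle small foreign or toxic molecules were called higher more often than lower. Glutathione S-transferases attach glutathione to reactive compounds, and some escort anthocyanins to the vacuole. In this list 21 of 37 members (56.8%) were higher in line 2 and 5 (13.5%) lower, with a median of 0.52. GST U9 FvH4_5g15020 (chromosome 5, 8510813 to 8511997) stood at 29.8, 31.3 and 29.3 FPKM in line 2, 0.204, 0.298 and 0.0989 FPKM in line 1 and 12.8, 13.2 and 16.6 FPKM in wild type. Its log2 difference was 4.70 (SE 0.089, limma adjusted p = 3.91e-08), with all line 1 values under 0.5 FPKM. GST F9 FvH4_6g38760 had 26.7 ± 0.376 FPKM in line 2, 1.86 ± 0.0212 in line 1 and 12.4 ± 2.19 in wild type, 14.3-fold higher. FvH4_6g12680 had 61.2 ± 5.62 FPKM in line 2, 7.299 ± 1.16 in line 1 and 13.2 ± 1.04 in wild type. The most abundant of the large rises, FvH4_3g16250, had 183 ± 2.36 FPKM in line 2, 24.8 ± 3.99 in line 1 and 83.6 ± 16.6 in wild type, 7.36-fold higher. FvH4_3g16240 was lower at 5.86 ± 0.779 FPKM in line 2 and 14.8 ± 2.45 in line 1. Its listed span (10240595 to 10252869, plus strand) contains FvH4_3g16250 (10243839 to 10245768, minus strand). The split of reads between these overlapping genes is uncertain. On chromosome 2, between 16849149 and 16895221, 8 glutathione transferase genes were tested, a group chosen after the values were seen. Its ends were set at the first and last called member of the cluster, so its count of calls is a description and not a test. Of these 8, 7 were higher and 5 of them at least 2-fold, all at low levels, as in FvH4_2g20110 (5.06 ± 0.483 FPKM in line 2 and 0.532 ± 0.142 in line 1).

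UDP-glycosyltransferases, which add sugars to hormones, flavonoids and other acceptors, had 29 of 65 members higher (44.6%) and 11 lower (16.9%), with a median of 0.2. The phloretin 4'-O-glucosyltransferase FvH4_4g13000 (chromosome 4, 16653303 to 16655350), named for an enzyme of apple that glucosylates a dihydrochalcone, stood at 46.4, 48.4 and 49.6 FPKM in line 2, 2.58, 1.71 and 2.35 FPKM in line 1 and 2.38, 2.63 and 3.36 FPKM in wild type. It was 21.8-fold higher in line 2 (log2 difference 3.94, SE 0.107, limma adjusted p = 1.1e-07), and line 1 and wild type lay close together. On chromosome 6, the flavonoid 3-O-glucosyltransferase FvH4_6g39410 had 81.4 ± 4.57 FPKM in line 2, 26.03 ± 0.867 in line 1 and 53.8 ± 5.75 in wild type. The 7-deoxyloganetin glucosyltransferase FvH4_6g39870 had 21.8 ± 0.741 FPKM in line 2, 3.58 ± 0.273 in line 1 and 20.9 ± 2.43 in wild type. In the last gene line 2 and wild type lay together and line 1 was low.

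Cytochrome P450s, oxygenases of hormone, defence and cuticle pathways, were called in both directions: 26 of 62 higher and 15 lower. P450 81Q32 FvH4_1g23710 stood at 61.3, 63.8 and 62.1 FPKM in line 2, 5.44, 4.17 and 4.32 FPKM in line 1 and 4.61, 4.91 and 4.55 FPKM in wild type. It was 13.4-fold higher in line 2, with line 1 at the wild type level. P450 714C2 FvH4_6g00880, of a group that inactivates gibberellins in rice, had 20.8 ± 1.27 FPKM in line 2, 0.746 ± 0.242 in line 1 and 4.03 ± 0.363 in wild type. P450 94A2 FvH4_2g22170 had 13.3 ± 0.3601 FPKM in line 2, 0.446 ± 0.0434 in line 1 and 6.66 ± 0.597 in wild type. The very abundant 736A117 FvH4_5g07540 was 2.31-fold higher, at 438 ± 17.3 FPKM in line 2, 189 ± 10.4 in line 1 and 229 ± 2.96 in wild type. In these 3 genes line 1 also stood below wild type. Among the falls, the 86A and 77A members belong to cutin synthesis and are described with it, and 72A219 FvH4_5g18530 had 3.24 ± 0.369 FPKM in line 2, 12.99 ± 1.41 in line 1 and 4.41 ± 0.406 in wild type.

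Genes of the family of the mutated gene were also called higher more often than lower. Of 62 listed MATE genes, 26 were tested, and 12 (46.2%) were higher and 4 (15.4%) lower in line 2, with a median of 0.21. DETOXIFICATION 35 FvH4_7g30080 (chromosome 7, 21995481 to 21998809), named for an Arabidopsis flavonoid transporter of the vacuole, stood at 169, 175 and 178 FPKM in line 2, 25.8, 26.3 and 27.9 FPKM in line 1 and 54.7, 53.7 and 54.6 FPKM in wild type. It was 6.54-fold higher in line 2 (log2 difference 2.66, SE 0.059, limma adjusted p = 5.97e-08), and its neighbour of the same name, FvH4_7g30070, had 24.1 ± 1.2 FPKM in line 2 and 13.3 ± 1.099 in line 1. DETOXIFICATION 43 FvH4_7g01040, whose Arabidopsis namesake moves citrate in iron transport, had 29.6 ± 0.898 FPKM in line 2, 7.04 ± 0.325 in line 1 and 16.8 ± 0.818 in wild type. DETOXIFICATION 40 FvH4_6g43220 had 3.44 ± 0.113 FPKM in line 2, 0.113 ± 0.09495 in line 1 and 2.73 ± 0.186 in wild type. The largest fall was in DETOXIFICATION 33 FvH4_2g40430, at 13.4 ± 1.45 FPKM in line 2, 36.2 ± 1.297 in line 1 and 35.5 ± 1.32 in wild type. The mutated gene may stand in this list under another name. ABC transporters, which pump their cargo with ATP, had 15 of 59 higher and 13 lower. The rises of at least 2-fold were C family members, which carry conjugates into the vacuole: C8 FvH4_6g33070 had 25.3 ± 1.34 FPKM in line 2, 11.2 ± 0.563 in line 1 and 6.61 ± 1.65 in wild type. C10 FvH4_7g30860 had 2.22 ± 0.07902 FPKM in line 2, 0.519 ± 0.0898 in line 1 and 0.6597 ± 0.149 in wild type. The falls of at least 2-fold were G family members, among them G11 FvH4_6g06950, a cuticle lipid exporter in Arabidopsis, at 6.71 ± 0.548 FPKM in line 2, 15.1 ± 0.991 in line 1 and 6.15 ± 0.535 in wild type. G15 FvH4_3g28460 had 8.22 ± 0.352 FPKM in line 2, 17.6 ± 0.489 in line 1 and 9.25 ± 1.73 in wild type.

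Iron storage and iron regulation stood among the extremes in opposite directions. Ferritin FvH4_6g10770 (chromosome 6, 6464165 to 6467043), the plastid protein shell that stores iron, stood at 204, 204 and 189 FPKM in line 2, 3.17, 4.64 and 3.54 FPKM in line 1 and 12.6, 13.6 and 12.1 FPKM in wild type. It was 52.6-fold higher in line 2 than in line 1 (log2 difference 5.40, SE 0.109, limma adjusted p = 3.91e-08), and wild type lay between the lines, nearer to line 1. Ferritin-3 FvH4_7g25100 had 53.6 ± 0.951 FPKM in line 2, 12.7 ± 0.7596 in line 1 and 22.98 ± 3.14 in wild type, 4.24-fold higher. ORG2 FvH4_2g11650 (chromosome 2, 10174591 to 10176131), a basic helix-loop-helix factor whose Arabidopsis namesake is induced by iron deficiency, stood at 0.0825, 0.121 and 0.278 FPKM in line 2, 14.7, 17.04 and 17.3 FPKM in line 1 and 9.49, 8.32 and 8.31 FPKM in wild type. Its log2 difference was -3.90 (SE 0.106, limma adjusted p = 1.1e-07), and all line 2 values were under 0.5 FPKM. The ferritin and metallothionein list held 4 tested genes, of which the 2 ferritins were higher and, without line 1 replicate 2, all 4. Iron transporters and ferric reductases were gathered after these values were seen. Of 12 tested, 3 were higher and 2 lower (median 0.09), against 17.3% higher and 14.1% lower over all genes. None reached 2-fold on the log2(FPKM + 1) scale, and values are given only for the 3 higher ones. The iron-chelate transporter YSL1 FvH4_5g10970 was higher, at 119 ± 2.44 FPKM in line 2 and 64.3 ± 2.71 in line 1. The vacuolar iron transporter FvH4_4g33340 was higher, at 3.001 ± 0.262 FPKM in line 2 and 1.68 ± 0.0907 in line 1. So was ferric reduction oxidase 8 FvH4_5g06130, at 5.68 ± 0.408 FPKM in line 2 and 3.398 ± 0.178 in line 1.

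In the jasmonate list more genes were higher than lower, and the higher ones were mostly enzymes. Jasmonate is a lipid hormone of wounding and defence, built by allene oxide synthase, allene oxide cyclase and 12-oxophytodienoate reductase. In the list, 12 of 24 genes were higher and 4 lower (median 0.34). Split after the values were seen, the 15 enzymes had 11 higher and 2 lower (median 1.07), and the 9 TIFY repressors of jasmonate signalling had 1 higher and 2 lower (median -0.10). The jasmonate-induced oxygenase FvH4_2g07081 (chromosome 2, 5854979 to 5857043), of a group that inactivates jasmonic acid in Arabidopsis, stood at 314, 322 and 289.7 FPKM in line 2, 28.1, 25.4 and 30.8 FPKM in line 1 and 45.7, 42.6 and 41.3 FPKM in wild type. It was 11-fold higher in line 2 (log2 difference 3.42, SE 0.081, limma adjusted p = 7.18e-08), and its neighbour FvH4_2g07080 was 5.04-fold higher, at 39.98 ± 2.21 FPKM in line 2 and 7.94 ± 0.359 in line 1. 12-oxophytodienoate reductase 3 FvH4_1g08454 had 6.71 ± 0.8399 FPKM in line 2, 0.119 ± 0.0777 in line 1 and 3.12 ± 0.367 in wild type. Allene oxide synthase 3 FvH4_5g16260 had 4.58 ± 0.384 FPKM in line 2, 0.2695 ± 0.0507 in line 1 and 5.22 ± 0.997 in wild type, in which line 2 lay near wild type. Allene oxide cyclase FvH4_6g45370 was lower at 2.35 ± 0.179 FPKM in line 2, 8.62 ± 0.196 in line 1 and 6.88 ± 1.898 in wild type. The more abundant cyclase FvH4_5g31510 was higher at 76.3 ± 0.7503 FPKM in line 2 and 47.3 ± 3.48 in line 1. A jasmonic acid carboxyl methyltransferase, FvH4_2g39441, which would make the volatile methyl ester, was among the 10 largest differences in FPKM at 1995 ± 36.4 FPKM in line 2, 1018 ± 39.98 in line 1 and 803 ± 39.9 in wild type.

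For ethylene, the gas hormone made by 1-aminocyclopropane-1-carboxylate (ACC) oxidase, 5 of 10 genes were higher and 0 lower by limma, also at an unadjusted p under 0.05 and by voom. The ACC oxidases FvH4_6g42090 and FvH4_3g01280 were both called. The first had 27.8 ± 0.459 FPKM in line 2, 5.18 ± 0.306 in line 1 and 17.2 ± 3.696 in wild type. The second had 108 ± 2.94 FPKM in line 2, 45.4 ± 1.47 in line 1 and 45.3 ± 2.24 in wild type. For gibberellin, a growth hormone, 3 of 11 were higher and 6 lower. The receptor GID1B FvH4_2g24370 was higher at 10.9 ± 0.746 FPKM in line 2 and 3.77 ± 0.406 in line 1. The receptor GID1C FvH4_6g04960 was lower at 102 ± 0.8195 FPKM in line 2 and 219 ± 18.4 in line 1. The synthesis enzyme gibberellin 20 oxidase FvH4_7g28670 was lower, at 3.29 ± 0.275 FPKM in line 2 and 7.67 ± 0.804 in line 1. Abscisic acid genes had 5 of 12 higher and 0 lower by limma, also at an unadjusted p under 0.05 and by voom, with 3 higher without line 2 replicate 1 and 1 lower without line 1 replicate 2. They included NCED2 FvH4_3g05440, of the rate-limiting step of abscisic acid synthesis, at 355 ± 12.9 FPKM in line 2, 256 ± 41.8 in line 1 and 298 ± 7.57 in wild type. In the auxin list 8 of 51 (15.7%) were higher and 7 (13.7%) lower, near the 17.3% and 14.1% over all genes (5 higher without line 1 replicate 1). The largest rise was in an auxin-repressed protein, FvH4_3g08830, at 17.4 ± 6.46 FPKM in line 2 and 3.61 ± 0.779 in line 1. The largest fall was in the auxin efflux carrier 5 FvH4_6g00660, at 3.87 ± 0.868 FPKM in line 2 and 10.9 ± 2.65 in line 1. Cytokinin dehydrogenase 7 FvH4_6g04910, which degrades cytokinins, was lower as well, at 22.6 ± 1.37 FPKM in line 2, 107 ± 15 in line 1 and 23.3 ± 0.483 in wild type, and was named after its values were seen.

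Most listed genes for the wax and cutin of the fruit surface were lower in line 2. In the list of cuticle and wax genes, 10 of 15 (66.7%) were lower in line 2 and 1 higher (0 higher without line 2 replicate 1), with a median of -0.66. Wax chains are lengthened by 3-ketoacyl-CoA synthases. The member named 6, FvH4_4g27420, stood at 1.02, 1.88 and 1.11 FPKM in line 2, 10.02, 7.83 and 9.98 FPKM in line 1 and 2.73, 3.53 and 3.14 FPKM in wild type, 6.93-fold lower in line 2 (log2 difference -2.15, SE 0.155, limma adjusted p = 2.82e-05). Long chain acyl-CoA synthetase 1 FvH4_1g26810, which activates fatty acids for wax and cutin, had 1.58 ± 0.432 FPKM in line 2, 9.21 ± 0.675 in line 1 and 2.28 ± 0.371 in wild type. Glycerol-3-phosphate acyltransferase 6 FvH4_6g11850, of cutin synthesis, had 3.16 ± 0.1302 FPKM in line 2, 14.4 ± 0.841 in line 1 and 5.84 ± 0.335 in wild type. In all 3 genes the line 2 and line 1 values were apart, and wild type lay between them, closer to line 2. The abundant ECERIFERUM 2 gene FvH4_5g34840 differed less, at 28.1 ± 1.77 FPKM in line 2, 36.3 ± 1.87 in line 1 and 67.8 ± 1.61 in wild type, with wild type above both lines.

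Enzymes of the same pathways outside the list were gathered after the values were seen. Among 9 fatty acyl-CoA reductases, aldehyde decarbonylases and P450s of the 86A and 77A groups, 8 were lower in line 2, 6 of them at least 2-fold, and 0 higher by limma, also at an unadjusted p under 0.05 and by voom (median -1.80). A wider group gathered in the same way, the GDSL esterases and lipases, differed less, with 5 of 27 higher and 10 lower (median -0.09). Fatty acyl-CoA reductase 5 FvH4_3g24570 (chromosome 3, 17626895 to 17633005), which makes fatty alcohols, stood at 0.694, 0.602 and 0.6199 FPKM in line 2, 16.1, 17.3 and 16.9 FPKM in line 1 and 1.14, 1.09 and 1.35 FPKM in wild type. It was 26.3-fold lower in line 2 (log2 difference -3.44, SE 0.079, limma adjusted p = 6.58e-08), and its neighbour FvH4_3g24571 was 4.599-fold lower. A CER1 decarbonylase, FvH4_7g08590, which makes wax alkanes, stood at 1.03, 1.13 and 1.85 FPKM in line 2, 22.7, 20.4 and 21.6 FPKM in line 1 and 0.0728, 0.0606 and 0.239 FPKM in wild type. The far more abundant CER1 gene FvH4_7g08560 had 119.8 ± 5.097 FPKM in line 2, 123 ± 14.9 in line 1 and 115 ± 4.42 in wild type and was the 1 of the 9 not called. P450 86A2 FvH4_7g14480 and 86A22 FvH4_5g02700, of cutin monomer synthesis, were both lower. The first had 13.3 ± 0.376 FPKM in line 2, 51.8 ± 8.49 in line 1 and 31.9 ± 2.41 in wild type. The second had 4.48 ± 0.502 FPKM in line 2, 19.03 ± 2.63 in line 1 and 11.2 ± 0.641 in wild type. The summed level of all 31 listed cuticle and wax genes, as a marker of the epidermis, was 278 to 286 FPKM in line 2 libraries, 327 to 367 in line 1 libraries and 394 to 397 in wild type libraries (9, 7 and 9 of the 31 at 0). Its part in these results was not tested.

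Lipid transfer proteins, small secreted proteins thought to carry cuticle lipids, were mostly lower as well: 7 of 9 were lower and 2 higher, with a median of -0.93. A row of neighbours on chromosome 6 held the largest amounts. FvH4_6g09980 stood at 1358, 1386 and 1375 FPKM in line 2, 2718, 2411 and 2718 FPKM in line 1 and 1467, 1582 and 1971 FPKM in wild type. FvH4_6g09970 stood at 647, 683 and 634 FPKM in line 2, 1612, 1749 and 1623 FPKM in line 1 and 829.5, 890.4 and 1164 FPKM in wild type. They were 1.91-fold and 2.54-fold lower in line 2 than in line 1, with wild type between the lines. FvH4_6g09960 stood at 14.1, 13.9 and 16.4 FPKM in line 2, 80.6, 81.5 and 74.7 FPKM in line 1 and 17.5, 22.5 and 23.96 FPKM in wild type, 5.33-fold lower (limma adjusted p = 3.41e-07). The members that rose were GPI-anchored proteins 7 FvH4_5g00460 and 31 FvH4_5g30920. Protein 7 had 38.8 ± 0.961 FPKM in line 2 and 25.7 ± 3.11 in line 1. Protein 31 had 369 ± 13.5 FPKM in line 2 and 266 ± 17.7 in line 1. Among other lipid genes, the delta-7 desaturase FvH4_3g28040 (chromosome 3, 21051337 to 21053314), which inserts a double bond into plastid galactolipids, had the largest fall of any described gene on the log2(FPKM + 1) scale. It stood at 0.845, 1.69 and 1.796 FPKM in line 2, 54.3, 59.6 and 60.1 FPKM in line 1 and 4.52, 5.24 and 4.66 FPKM in wild type, 40.2-fold lower in line 2 (log2 difference -4.62, SE 0.151, limma adjusted p = 2.89e-07). The stearoyl-ACP desaturase FvH4_2g14690 went the other way, at 28.7 ± 0.806 FPKM in line 2, 5.19 ± 0.283 in line 1 and 3.17 ± 0.243 in wild type, within a desaturase list of 3 higher and 5 lower of 16.

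**Figure D4:**
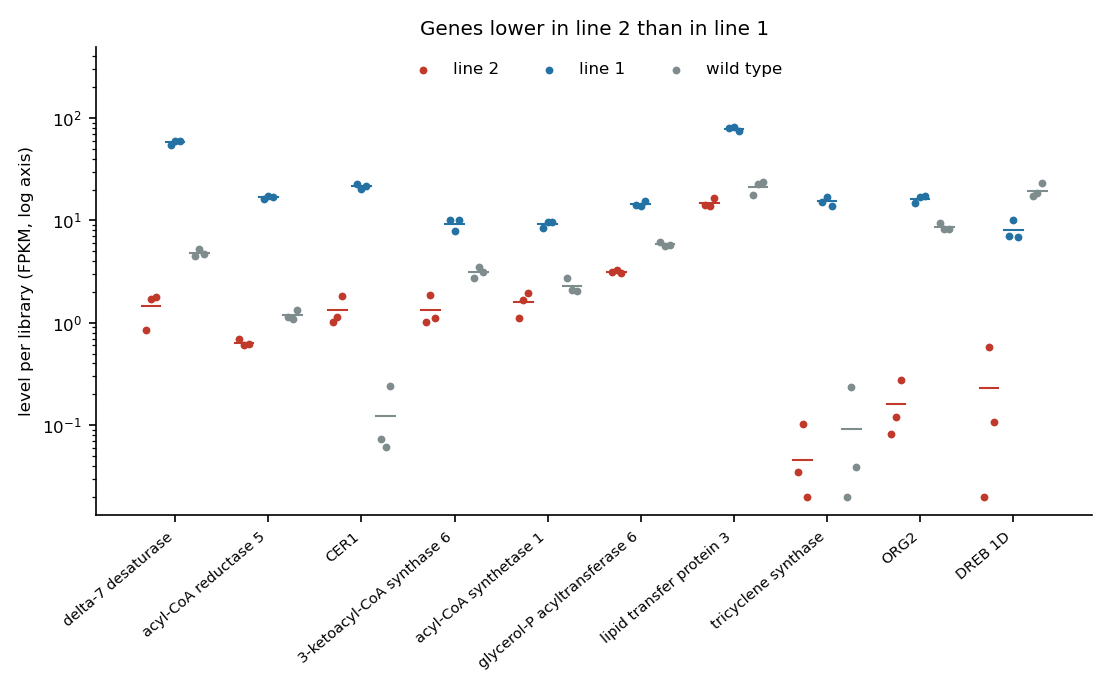
Level per library (y axis, FPKM, log axis, values of 0 drawn at 0.02) of 10 genes that were lower in line 2 (red) than in line 1 (blue), with wild type in grey; points are libraries and short lines are group means (n = 3). The lines do not overlap for any of the 10, and wild type ranges from near line 2 (desaturase, acyl-CoA reductase 5, tricyclene synthase) to above line 1 (DREB 1D).

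Called genes of wall synthesis were mostly lower, and those of wall loosening went both ways. Cellulose and xylan synthesis genes had 10 of 28 lower and 1 higher (median -0.27). COBRA FvH4_6g46530, an anchor protein that orients cellulose deposition in Arabidopsis, had 22.96 ± 0.369 FPKM in line 2, 51.6 ± 1.86 in line 1 and 40.2 ± 1.77 in wild type. CELLULOSE SYNTHASE A catalytic subunit 2 FvH4_1g23890 had 16.4 ± 0.963 FPKM in line 2, 26.9 ± 2.78 in line 1 and 19.9 ± 4.89 in wild type. Xyloglucan and beta-galactosidase enzymes had 8 of 33 higher and 13 lower. Beta-galactosidase 16 FvH4_2g27470, an abundant gene of a family that trims galactose side chains, stood at 2622, 2728 and 2877 FPKM in line 2, 1708, 1429 and 1759 FPKM in line 1 and 1992, 2017 and 1616 FPKM in wild type. It was 1.68-fold higher in line 2 (limma adjusted p = 0.000592), whereas the xyloglucan endotransglucosylases FvH4_3g00840 and FvH4_3g00833 were lower. The first had 0.507 ± 0.237 FPKM in line 2 and 2.57 ± 0.08995 in line 1. The second had 1.599 ± 0.1297 FPKM in line 2 and 5.26 ± 1.68 in line 1. Pectin-modifying enzymes had 4 of 35 higher and 8 lower, with 2 higher without line 2 replicate 1, 2 or 3. The pectin acetylesterases FvH4_5g24500 and FvH4_5g24510, neighbours on chromosome 5, were lower. The first had 75.4 ± 1.13 FPKM in line 2, 189 ± 5.399 in line 1 and 166 ± 7.79 in wild type. The second had 9.41 ± 1.29 FPKM in line 2, 34.4 ± 1.06 in line 1 and 76.7 ± 3.28 in wild type. Of 12 expansins, which loosen walls, 3 were higher and 4 lower. The A6 gene FvH4_3g36410, at 1058 ± 29.2 FPKM in line 2, 765 ± 79.4 in line 1 and 1154 ± 138 in wild type, was higher. The A6 gene FvH4_6g13610, at 31.9 ± 2.38 FPKM in line 2, 80.8 ± 13.3 in line 1 and 80.2 ± 6.91 in wild type, was lower.

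The PHOSPHATE-INDUCED 1 genes, relatives of EXORDIUM, which promotes cell expansion in Arabidopsis, lie in a row on chromosome 5. With an EXORDIUM-like neighbour they formed a run of 5 adjacent tested genes that were all lower (27004166 to 27035766). FvH4_5g36900 stood at 11.3, 14.1 and 12.1 FPKM in line 2, 68.4, 74.7 and 70.5 FPKM in line 1 and 54.9, 62.6 and 70.6 FPKM in wild type, 5.699-fold lower in line 2 (limma adjusted p = 4.59e-07). FvH4_5g36920 had 2.73 ± 0.587 FPKM in line 2, 18.3 ± 2.51 in line 1 and 23.7 ± 1.82 in wild type. Aquaporins, the water channels of the plasma membrane and vacuole, had 5 of 22 higher and 8 lower, and the others were not called. The lower count was 5 without line 2 replicate 1, line 2 replicate 3 or line 1 replicate 3, and the higher count 3 without line 2 replicate 1 or 2 or with 1 common FPKM sum. Of the vacuolar TIP1-2 genes, FvH4_7g03120 had 3.897 ± 0.302 FPKM in line 2, 20.1 ± 3.19 in line 1 and 7.81 ± 1.37 in wild type. FvH4_3g34940 had 2.44 ± 0.206 FPKM in line 2, 13.8 ± 1.22 in line 1 and 3.28 ± 0.203 in wild type. The plasma membrane channel PIP1-3 FvH4_7g14430 was lower at 295 ± 14.96 FPKM in line 2, 521 ± 39.8 in line 1 and 378 ± 47.96 in wild type. GDPDL3 FvH4_3g13670, a glycerophosphodiester phosphodiesterase-like protein needed for wall organisation in Arabidopsis, had 15.8 ± 0.514 FPKM in line 2, 81.1 ± 2.802 in line 1 and 8.89 ± 0.9501 in wild type, 5.13-fold lower in line 2 than in line 1, and wild type below both.

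Some markers of other parts of the fruit differed between the lines. The summed levels of the list of storage proteins, oleosins and late embryogenesis proteins overlapped between the lines, as did those of photosynthesis genes. Prunins, the 11S storage globulins of seeds, fell in 5 of 6 tested genes (median -1.65), a group named after the values were seen. FvH4_2g21400 stood at 6.53, 12.3 and 37.8 FPKM in line 2, 239.7, 76.7 and 89.8 FPKM in line 1 and 201, 115 and 91.3 FPKM in wild type, so that the values within each group spread widely although the lines did not overlap. Its log2 difference was -2.92 (limma adjusted p = 0.00731). Line 2 replicate 3 narrowed the difference, which was -3.57 without it, and line 1 replicate 1, at 239.7 FPKM, widened it. The gene was called in all 20 alternatives, with a limma adjusted p of up to 0.0311. The 7 listed prunin genes summed to 63.5 to 147 FPKM in line 2 libraries, 221 to 602 in line 1 libraries and 316 to 684 in wild type libraries, with 0 of the 7 at 0. In the list of other storage proteins, oleosins and late embryogenesis proteins, 6 of 14 tested genes were lower and 3 higher (median -0.36). The oleosin FvH4_7g26900 had 8.36 ± 3.56 FPKM in line 2, 30.99 ± 10.4 in line 1 and 41.2 ± 8.76 in wild type. The vicilin-like FvH4_1g13730 was higher, at 94.2 ± 4.33 FPKM in line 2, 40.6 ± 4.21 in line 1 and 26.7 ± 3.23 in wild type. All 29 listed members summed to 341 to 402 FPKM in line 2, 360 to 464 in line 1 and 372 to 467 in wild type (8, 3 and 6 at 0).

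Vascular markers had 5 of 9 tested genes lower and 2 higher (1 higher without line 2 replicate 1 or 2 or line 1 replicate 1). All 21 listed summed to 219 to 227 FPKM in line 2, 252 to 258 in line 1 and 198 to 209.6 in wild type (6, 3 and 7 at 0). The 48 listed photosynthesis genes summed to 46.3 to 65.8 FPKM in line 2, 50.2 to 61.7 in line 1 and 48.7 to 53.3 in wild type (10, 8 and 9 at 0). Pollen genes were near 0 everywhere, with 0 of 11 tested and sums of 0.382 to 0.431 FPKM in line 2, 1.13 to 1.75 in line 1 and 0.347 to 0.485 in wild type (7, 4 and 7 at 0). The part of achene, epidermal or vascular content in the results above was not tested.

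Transcription factors were called in both directions. DREB1D FvH4_7g28950, whose Arabidopsis namesake CBF4 acts in drought responses, stood at 0, 0.584 and 0.108 FPKM in line 2, 7.09, 10.1 and 6.898 FPKM in line 1 and 17.2, 18.3 and 23.04 FPKM in wild type. Its log2 difference was -2.88 (limma adjusted p = 2.11e-05), and wild type was above both lines. In the AP2/ERF list, 12 of 34 were lower and 5 higher (8 higher without line 1 replicate 2), with a median of -0.13. Ethylene-responsive factors 5 FvH4_7g26930 and ERF107 FvH4_7g26940 are neighbours on chromosome 7. Factor 5 had 14.5 ± 0.547 FPKM in line 2, 41.1 ± 1.95 in line 1 and 46.5 ± 1.98 in wild type. ERF107 had 1.77 ± 0.157 FPKM in line 2, 6.55 ± 0.378 in line 1 and 2.31 ± 0.226 in wild type. Wild type stood near line 1 in the first gene and near line 2 in the second. NAC71 FvH4_5g21670 had 6.57 ± 0.439 FPKM in line 2, 25.8 ± 0.485 in line 1 and 3.38 ± 0.4504 in wild type, the largest difference in a list of 6 higher and 4 lower of 30. The abundant NAC56 FvH4_3g20700 was higher, at 1697 ± 31.8 FPKM in line 2, 1152 ± 105 in line 1 and 1397 ± 94.8 in wild type. bHLH95 FvH4_2g05810 was lower at 0.461 ± 0.1397 FPKM in line 2 and 3.24 ± 0.452 in line 1. The MYB list had 7 higher and 7 lower of 34 (20.6% each, against 17.3% and 14.1% over all genes). MYB44 FvH4_2g33810, a stress-induced factor, was lower at 41.02 ± 0.826 FPKM in line 2, 86.2 ± 6.19 in line 1 and 89.6 ± 10.6 in wild type. Among signalling genes, CML38 FvH4_5g26790, a calcium-binding protein induced by wounding and low oxygen in Arabidopsis, was lower at 4.61 ± 0.557 FPKM in line 2, 37.7 ± 7.09 in line 1 and 49.96 ± 9.25 in wild type. The protein phosphatase 2C 25 FvH4_3g38990 had 3.71 ± 0.553 FPKM in line 2, 23.01 ± 0.947 in line 1 and 17.4 ± 0.729 in wild type.

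In the flavonoid and anthocyanin list, 6 of 19 were higher and 8 lower in line 2 (median -0.06), and the lower count was 5 without line 2 replicate 2, line 2 replicate 3, line 1 replicate 1 or line 1 replicate 3. The lower ones included abundant enzymes of the anthocyanin route. Leucoanthocyanidin dioxygenase FvH4_5g01170, which makes anthocyanidins, stood at 653, 662 and 643 FPKM in line 2, 1108, 1096 and 1128 FPKM in line 1 and 1277, 1329 and 1517 FPKM in wild type. It was 1.702-fold lower in line 2 (log2 difference -0.77, SE 0.058, limma adjusted p = 3.54e-05), with every line 2 value under every line 1 value and wild type highest. Dihydroflavonol reductase FvH4_2g39520 was 1.699-fold, chalcone isomerase FvH4_7g20870 1.61-fold and flavanone 3-hydroxylase FvH4_1g11810 (naringenin 3-dioxygenase) 1.56-fold lower in line 2. MYB113 FvH4_1g22020, named for an Arabidopsis activator of this pathway, had 29.1 ± 2.15 FPKM in line 2, 42.5 ± 7.87 in line 1 and 44.5 ± 3.67 in wild type. Its call was lost without line 2 replicate 3 (limma adjusted p = 0.0507). The rises included flavonol synthase FvH4_2g07082, at 8.57 ± 0.587 FPKM in line 2, 0.792 ± 0.363 in line 1 and 2.81 ± 0.387 in wild type, next to the jasmonate-induced oxygenases on chromosome 2. Anthocyanidin glucosyltransferases, of the anthocyanin route, also rose. FvH4_1g13970 had 159 ± 2.67 FPKM in line 2, 75.4 ± 7.18 in line 1 and 128 ± 6.84 in wild type. FvH4_1g14000 had 4.94 ± 0.191 FPKM in line 2, 1.41 ± 0.0964 in line 1 and 2.73 ± 0.284 in wild type. Upstream, one phenylalanine ammonia-lyase gene, FvH4_7g19130, was higher (162 ± 8.57 FPKM in line 2 and 70.6 ± 11.3 in line 1) and another, FvH4_6g16060, lower (202 ± 8.97 FPKM in line 2 and 309 ± 51.1 in line 1).

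Lignin enzymes had 11 of 24 higher and 7 lower (median 0.25), 6 and 4 without line 2 replicate 1 and 8 and 4 without line 2 replicate 2. Caffeoyl-CoA O-methyltransferase FvH4_2g05780 had 443 ± 24.7 FPKM in line 2, 251 ± 17.2 in line 1 and 175 ± 16.1 in wild type. The cinnamyl alcohol dehydrogenase FvH4_5g10200 had 171 ± 5.88 FPKM in line 2, 78.98 ± 1.63 in line 1 and 64.9 ± 3.46 in wild type. Of 6 tested laccases, oxidases of a lignin-forming family, 2 were higher and 2 lower, with a median of -0.29. The higher ones were laccase 15 FvH4_1g24380 and a laccase 9, FvH4_2g12590. Laccase 15 had 56.05 ± 2.84 FPKM in line 2, 10.2 ± 1.01 in line 1 and 25.7 ± 2.46 in wild type. Laccase 9 had 249 ± 7.03 FPKM in line 2, 84.9 ± 8.54 in line 1 and 23.04 ± 3.01 in wild type. A second laccase 9, FvH4_2g12570, had 0.928 ± 0.269 FPKM in line 2 and 1.62 ± 0.0869 in line 1. Laccase 11 FvH4_2g08670 had 3.56 ± 0.685 FPKM in line 2 and 4.85 ± 0.0678 in line 1. Both calls were near the threshold: leaving out 1 library raised the limma adjusted p to 0.0596 to 0.0825 in 5 of 6 cases for laccase 9 and to 0.0664 to 0.108 in 5 of 6 cases for laccase 11. Terpene synthases make volatile terpenes. Of the 7 tested genes that the list matched by name, 4 were higher and 0 lower by limma (1 lower at an unadjusted p under 0.05 and by voom scaled to totals). Germacrene D synthase FvH4_5g06470 stood at 2725, 2835 and 3008 FPKM in line 2, 1512, 1445 and 1534 FPKM in line 1 and 1175, 1226 and 1011 FPKM in wild type. It was 1.91-fold higher in line 2 (limma adjusted p = 3.78e-05), the largest difference in FPKM among called described genes. Tricyclene synthase FvH4_6g43791, a terpene synthase whose name the list did not match, was lower. It stood at 0.03496, 0.102 and 0 FPKM in line 2, 15.2, 16.9 and 13.8 FPKM in line 1 and 0, 0.236 and 0.0386 FPKM in wild type. It was on in line 1 alone (log2 difference -3.96, limma adjusted p = 1.02e-07). Aroma ester, furanone and alcohol enzymes had 7 of 17 higher and 1 lower, among them the 13-lipoxygenase FvH4_7g00440, which starts the pathway to leaf aldehydes, at 161 ± 6.22 FPKM in line 2, 101 ± 8.03 in line 1 and 188 ± 26.8 in wild type. The lower call was absent without line 2 replicate 1, 2 or 3 or line 1 replicate 1, and numbered 2 without line 1 replicate 2. With 1 common FPKM sum 5 of these enzymes were higher and 4 lower.

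The MCM2 to MCM7 subunits form the helicase that opens replication origins. Of 8 tested MCM genes, grouped after the values were seen, 6 were higher and 0 lower in line 2 by limma (median 0.69; 0 lower at an unadjusted p under 0.05 and by voom), and wild type was above both lines for 7. MCM5 FvH4_1g01490 stood at 17.3, 18.5 and 17.2 FPKM in line 2, 8.03, 6.97 and 8.76 FPKM in line 1 and 32.6, 29.3 and 24.9 FPKM in wild type. It was 2.23-fold higher in line 2 than in line 1 (limma adjusted p = 5.82e-05), with no overlap between any of the 3 groups. The sliding clamp PCNA FvH4_6g24870 had 18.7 ± 1.46 FPKM in line 2, 11.6 ± 1.02 in line 1 and 28.3 ± 2.396 in wild type. The whole DNA replication and cell cycle list had 11 of 36 higher and 3 lower (5 lower without line 1 replicate 2 and 8 lower by voom scaled to totals). Histone genes had 0 of 33 higher and 16 lower in line 2 (limma, median -0.24; 0 higher at an unadjusted p under 0.05 and by voom). The lower count was 10 without line 2 replicate 3 and 9 without line 1 replicate 1. Histone H4 FvH4_7g20780 had 126 ± 16.3 FPKM in line 2, 205 ± 27.1 in line 1 and 232 ± 25.4 in wild type. H2A.1 FvH4_6g06430 had 25.5 ± 1.704 FPKM in line 2, 40.9 ± 2.56 in line 1 and 65.05 ± 12.2 in wild type. Histone copies are nearly identical, so their split is uncertain.

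Cytosolic ribosomal proteins had 4 of 183 higher and 18 lower, both shares below those of all genes. With libraries brought to 1 common FPKM sum 42 were lower, a share above that of all genes under that scaling (3116 of 15476), and with array weights 34 were. The lower count was 11 without line 2 replicate 2 or line 1 replicate 1 and 9 without line 2 replicate 3, and the higher count was 2 without line 2 replicate 1 or 2. Of the higher ones, L27 FvH4_7g04670 stood at 170.5, 169 and 174 FPKM in line 2, 10.7, 13.9 and 9.79 FPKM in line 1 and 21.9, 20.1 and 23.3 FPKM in wild type. This was 14.96-fold higher in line 2 (limma adjusted p = 1.8e-07). L24 FvH4_6g28801 had 447 ± 53.5 FPKM in line 2, 94.3 ± 5.73 in line 1 and 147 ± 31.7 in wild type. Wild type lay between the lines in both. Plastid and mitochondrial ribosomal proteins had 23 of 93 higher and 5 lower, with a median of 0.06 that fell below 0 under at least 1 other scaling (3 lower without line 2 replicate 1 or 2). Plastid L10 FvH4_2g21340 and S31 FvH4_6g11730 were higher. L10 had 16.03 ± 1.55 FPKM in line 2, 6.63 ± 0.662 in line 1 and 13.9 ± 2.73 in wild type. S31 had 15.1 ± 0.986 FPKM in line 2, 6.37 ± 0.812 in line 1 and 15.2 ± 5.62 in wild type. Of 45 proteasome genes, 0 were called in either direction (limma; 4 higher and 3 lower at an unadjusted p under 0.05, 1 lower by voom scaled to totals, 5 higher and 1 lower without line 1 replicate 2, 1 lower without line 1 replicate 3, 4 lower with 1 common FPKM sum, and 7 higher and 2 lower with array weights).

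**Figure D5:**
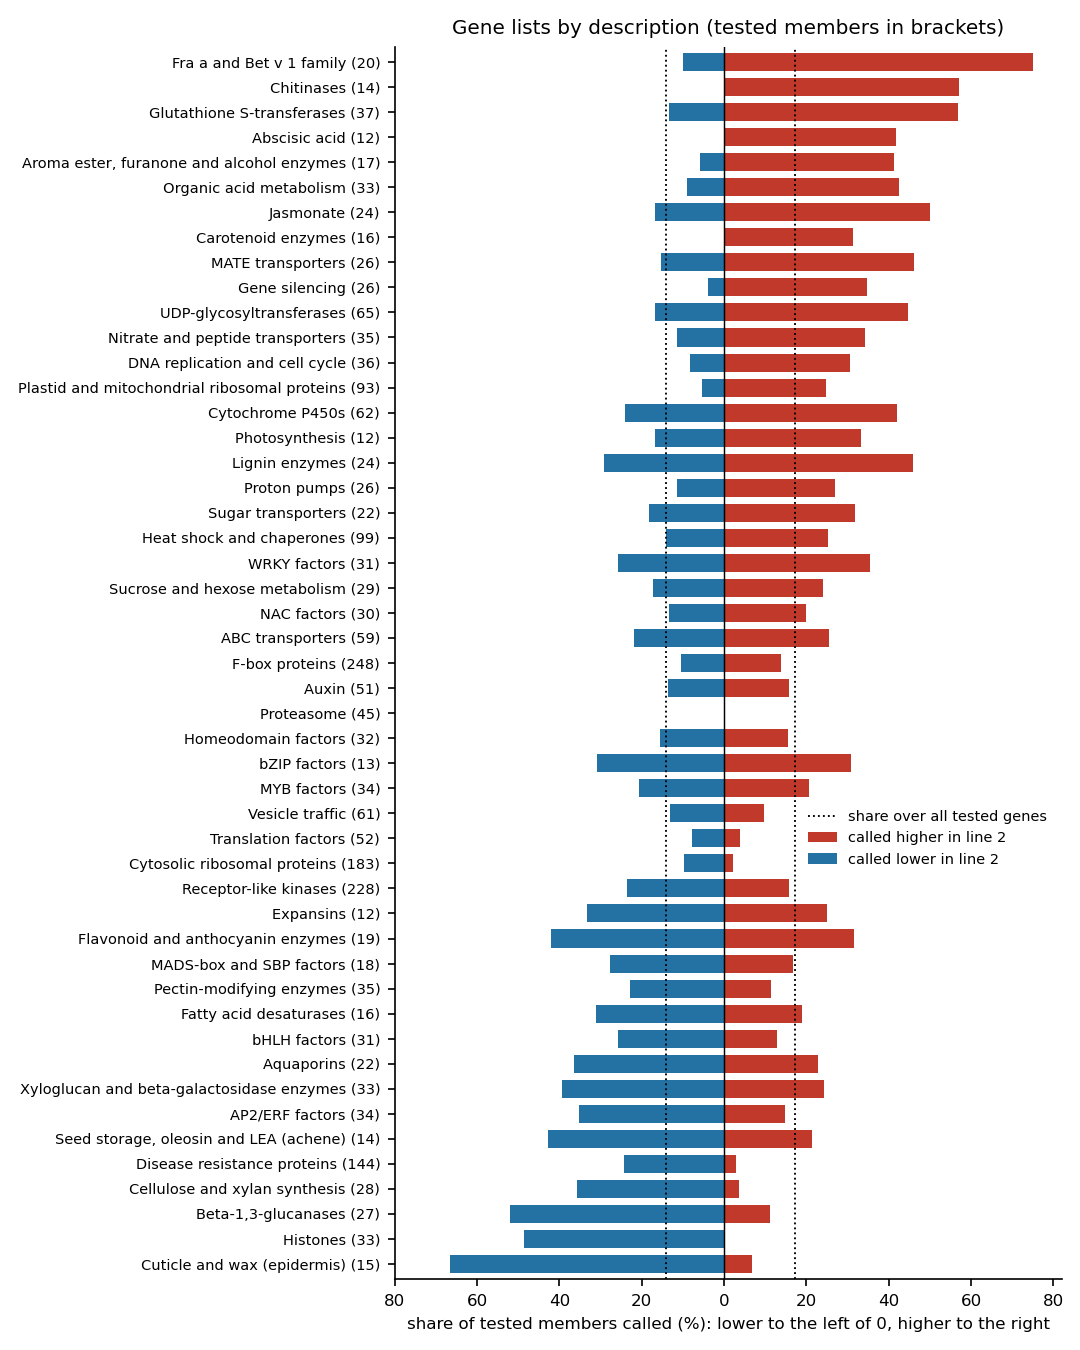
Share of tested members called higher (red, right) and lower (blue, left) in line 2 for the 49 lists with at least 12 tested members, ordered by the difference of the shares; dotted lines mark the shares over all genes (17.3% higher, 14.1% lower). Fra a proteins, chitinases and glutathione S-transferases are at the top, and cuticle and wax genes, histones and beta-1,3-glucanases at the bottom.

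Along the genome the large differences were spread out. Genes at least 2-fold different made up 3.76 to 5.70% of tested genes per chromosome, and 117 of 440 windows of 500 kb held none, with a median of 1. The window with the most lay on chromosome 4, from 22500001 to 23000000, with 11 higher and 0 lower of 41, and contained most of the Fra a cluster. Runs of at least 5 neighbouring tested genes called in the same direction numbered 10, 4 higher and 6 lower, with 56 genes in all. Besides the Fra a run of 8 genes (22753753 to 22774051) and the PHOSPHATE-INDUCED 1 run, a run of 5 lower genes on chromosome 7 (20199316 to 20238141) held the oleosin FvH4_7g26900, the ethylene-responsive factors FvH4_7g26920, FvH4_7g26930 and FvH4_7g26940 and the phosphofructokinase FvH4_7g26950, whose call was lost without line 2 replicate 2 (limma adjusted p = 0.0677) or line 1 replicate 1 (0.063). A run of 6 higher genes on chromosome 6 (30658524 to 30705877) started with GST F9 FvH4_6g38760. It also held JASON FvH4_6g38770, at 5.77 ± 0.337 FPKM in line 2 and 3.08 ± 0.203 in line 1, and the nucleoporin NUP205 gene FvH4_6g38782, at 36.4 ± 1.61 FPKM in line 2 and 24.01 ± 1.87 in line 1. Named after the values were seen, the largest fall of all on the log2(FPKM + 1) scale was in a gene without description or domain, FvH4_1g04050 (chromosome 1, 2144941 to 2145177), which stood at 18.3, 15.7 and 13.7 FPKM in line 2, 792, 938 and 779.8 FPKM in line 1 and 372, 405 and 515 FPKM in wild type. It was 52.6-fold lower in line 2 than in line 1 (log2 difference -5.63, SE 0.113, limma adjusted p = 3.91e-08), and the 3 groups did not overlap.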

How the data were processed

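The authors deposited 1 table of FPKM values, read fragments relative to gene length and to library size, for 34777 listed genes in 9 libraries. HISAT2 2.2.1, StringTie 2.2.3, featureCounts 2.0.6 and fastp are listed in the submitters' processing notes. The genome build is not given in the sources used here, and positions are as the file lists them. Counts were recovered by dividing FPKM times gene length by the smallest step of each library, and 100% came out whole within 0.02. Recovered units of 1 to 20 were even in 62.8 to 72.8% of cases, so a unit may be 1 read of a pair.

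Genes with at least 1 FPKM in 3 of the 6 mutant libraries were fitted as log2(FPKM + 1) with limma 3.58.1 in R 4.3.3 (trend, empirical Bayes), line 2 minus line 1, and p-values were adjusted by Benjamini-Hochberg over 15476 genes. Fold changes printed for single genes are ratios of mean FPKM. Counts of genes by a fold limit, and the largest rises and falls, are by the log2(FPKM + 1) difference unless said to be in FPKM. Differences on the log2(FPKM + 1) scale understate the change of low genes, and no ratio is given where a line averaged under 0.5 FPKM. The fit was tested on simulated data with 15476 genes: 78% of planted 1.5-fold and 100% of 2-fold changes were recovered, and 11 of 15276 unchanged genes were called. The simulation gave every gene and library the same dispersion, set no library apart, and planted changes only in genes above the lowest levels. Its rates are therefore not the error rates of these data.

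The members and lists were chosen with earlier results of these data known. Named genes have a description and are the 15 largest non-overlapping called differences in each direction, up to 4 called members and the most abundant member of each list, genes with at least 5 FPKM in 1 line and under 0.5 in the other, the 10 largest differences in FPKM, runs of at least 5 neighbours, and the genes beside the limit. Of the 162 genes given, 40 lie outside this rule and were chosen after their values were seen.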

Additional observations from a re-analysis of the deposited data

How the results depend on the processing

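Of the 742 genes at least 2-fold different, 736 were called in the same direction in every one of the 20 alternatives that tested them. Of 160 called genes given in the text, 155 were called in every setting and 5 lost the call in at least 1. The count of higher, lower and 2-fold genes ranged over 1916 to 3077, 1562 to 2567 and 727 to 747 when 1 library was left out. The 2-fold count was 1141 with a pseudocount of 0.1, 1187 with 0.01 and 433 among genes averaging 5 FPKM or more, where 1402 were lower. With array weights 3344 were lower. In voom on recovered counts, an alternative chosen after seeing the data, 1214 genes differed at least 2-fold when scaled to totals and 1187 with median-of-ratios scaling. Same-numbered replicates did not deviate together (r of -0.118, 0.004 and 0.162), and with the replicate number as a block 2580 genes were higher, 2109 lower and 742 at least 2-fold different. The difference of the abundant CER1 gene FvH4_7g08560, which was not called, ranged over -0.13 to 0.032 when 1 library was left out. The planned negative binomial count tests were not run. Counts in gene lists moved further than the whole table in places. With array weights 7 MATE, 21 ABC, 11 auxin, 11 MYB and 8 NAC genes were lower, and 9 AP2/ERF genes and 7 pectin-modifying genes were higher. By voom scaled to totals 17 UDP-glycosyltransferases, 56 disease resistance genes and 9 plastid and mitochondrial ribosomal genes were lower. Without the limit on low values 70 receptor-like kinases, 7 disease resistance genes, 5 beta-1,3-glucanases and 5 gibberellin genes were higher, and 19 AP2/ERF, 19 pectin-modifying, 8 vascular and 2 abscisic acid genes were lower. The limit of 5 FPKM tests fewer genes, and its list counts are not given. With 3 libraries a line, differences under 1.5-fold are the least secure, and for genes near 1 FPKM the counts set the precision.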

Other observations

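Other groups not described above held called genes in both directions. Gene silencing factors had 9 of 26 higher and 1 lower in line 2 (median 0.14). The methyltransferase DRM2 FvH4_6g30450, which methylates cytosines at sites guided by small RNAs, stood at 94.5, 93.7 and 97.4 FPKM in line 2, 38.5, 42.5 and 37.2 FPKM in line 1 and 38.96, 35.1 and 35.5 FPKM in wild type. It was 2.42-fold higher in line 2 (limma adjusted p = 4.7e-06), with line 1 and wild type close together, and argonaute 1B FvH4_5g18150, which loads small RNAs, had 36.04 ± 0.325 FPKM in line 2 and 22.1 ± 0.647 in line 1. CMT3 FvH4_1g00970, a methyltransferase of heterochromatin, was the lower member, at 6.67 ± 0.572 FPKM in line 2, 9.85 ± 0.821 in line 1 and 14.7 ± 1.39 in wild type. Sucrose and hexose enzymes had 7 of 29 higher (24.1%) and 5 lower (17.2%), and 3 lower without line 2 replicate 2. Among them, sucrose synthase 2 FvH4_2g26000 was higher, at 64.7 ± 1.41 FPKM in line 2, 25.01 ± 0.506 in line 1 and 37.8 ± 3.92 in wild type. Sugar transporters had 7 of 22 higher (31.8%) and 4 lower (18.2%), with a median of -0.07 and 1 to 8 lower across the settings. The hexose carrier sugar transport protein 13 FvH4_4g15150 was higher, at 169 ± 8.33 FPKM in line 2, 79.4 ± 7.903 in line 1 and 88.3 ± 6.1 in wild type. Organic acid genes had 14 of 33 higher and 3 lower, 9 higher without line 2 replicate 3 and 5 lower without line 1 replicate 2. Phosphoenolpyruvate carboxylase 2 FvH4_6g33320, which feeds malate synthesis, was lower at 1.12 ± 0.1799 FPKM in line 2, 4.504 ± 0.465 in line 1 and 0.853 ± 0.135 in wild type.

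Heat shock proteins and chaperones had 25 of 99 higher (25.3%) and 14 lower (14.1%), against 17.3% and 14.1% over all genes. The higher count was 16 without line 2 replicate 2, and the median of 0.04 fell below 0 with scaling to totals. The largest fall was in the 17.8 kDa class I protein FvH4_7g23710, at 4.82 ± 0.557 FPKM in line 2, 18.9 ± 5.14 in line 1 and 22.2 ± 5.32 in wild type. WRKY factors, regulators of defence, had 11 of 31 higher and 8 lower, with a median of 0.04 that fell below 0 with scaling to totals. The lower count was 4 without line 2 replicate 2 and 5 without line 2 replicate 1, line 2 replicate 3 or line 1 replicate 3. WRKY75 FvH4_6g53770 was higher at 21.8 ± 1.04 FPKM in line 2, 9.69 ± 1.01 in line 1 and 15.8 ± 0.8603 in wild type. WRKY40 FvH4_6g28650 was lower at 3.88 ± 0.1902 FPKM in line 2, 9.87 ± 1.29 in line 1 and 8.55 ± 0.603 in wild type. The homeodomain factor ATHB-12 FvH4_7g17320, induced by abscisic acid in Arabidopsis, had 91.1 ± 2.75 FPKM in line 2, 40.98 ± 1.34 in line 1 and 73.4 ± 3.75 in wild type.

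Redox and specialised enzymes were among the genes on in line 2 and nearly off in line 1. The 2-alkenal reductase FvH4_1g00340, which detoxifies reactive carbonyls, had 13.9 ± 1.14 FPKM in line 2, 0.0736 ± 0.0709 in line 1 and 6.02 ± 0.497 in wild type. A gene named norbelladine synthase, FvH4_7g34120, after an alkaloid enzyme, had 17.1 ± 1.64 FPKM in line 2, 0.1904 ± 0.0351 in line 1 and 4.05 ± 0.574 in wild type. The ACC oxidase homolog FvH4_5g19310 had 5.53 ± 0.717 FPKM in line 2, 0.0203 ± 0.0178 in line 1 and 3.57 ± 0.298 in wild type. The NADPH:quinone oxidoreductase FvH4_7g03220 was more abundant, at 110.2 ± 9.96 FPKM in line 2, 9.15 ± 2.71 in line 1 and 43.1 ± 6.49 in wild type, 12.04-fold higher in line 2 than in line 1.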
